A study of Drosophila melanogaster with 3 samples.

Results

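Glut4EF and CG46467 are a pair of Drosophila melanogaster genes that share a promoter and most of their length on chromosome arm 3R, and their locus was one of the places with most abd-A peaks in the genome. Of the 8143 peaks in the authors' list thresholded by the irreproducible discovery rate (IDR, a measure of how well replicate rankings match), 31 had their summit in the 2 gene bodies or within 2 kb of them. The locus was chosen by this measured number of peaks, so the number itself is a description of the choice and was given no test. Chromatin immunoprecipitation with an antibody to GFP and sequencing (ChIP-seq) had been done on whole embryos 4 to 24 hours old, males and females pooled, in 3 biological replicates. All came from 1 transgenic line with GFP fused to the C-terminus of abd-A, so there was 1 group and no second genotype, stage or treatment to compare. The labels do not say where in the embryo, or from which promoter, the fusion protein was made. In whole embryos a strong site in few cells and a weak site in many cells cannot be told apart, and peak strength below is an average over all cells of the embryo.

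The abd-A protein is a Hox factor of the bithorax complex that specifies the identity of abdominal segments, and its homeodomain binds short AT-rich words such as TAAT and TTAT. Hox proteins share these words with many other homeodomain proteins, and their partners Exd and Hth shape which sites they occupy. Glut4EF is named after the mammalian GLUT4 enhancer factor, a zinc finger protein that binds the promoter of the insulin-responsive glucose transporter GLUT4 in mammals, where MEF2 proteins bind too. CG46467 is an open reading frame on the same dicistronic RNA as Glut4EF, and the protein it encodes is uncharacterized in the annotation.

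On the dm6 assembly Glut4EF (FBgn0267336) spanned 120684 bp on the plus strand of arm 3R, from 9874681 to 9995364. CG46467 (FBgn0287598) began at the same base and ended at 9988876, a span of 114196 bp. Its single transcript had the same 7 exons as the Glut4EF transcripts RA and RG, and its reading frame of 207 bp lay at 9875141 to 9875347, ahead of the Glut4EF reading frame that opens at 9875675. All 31 summits fell in the windows of both genes, so no peak separates them and the genes are described together. Glut4EF had 8 transcripts from 2 starts. The start at 9874681 serves 5 of them and CG46467, and the start at 9928917, which is 54236 bp further on, serves the other 3. The window with its flanks measured 124684 bp.

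Both starts had peaks just before them. The stretches of 300 bp before each start are printed on the plus strand from the RefSeq sequence of genome release 6, because they hold 3 of the 31 summits. Capitals mark GAGAG on either strand, the word of the GAGA factor, a protein that keeps many fly promoters open.

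Before the first start, chr3R:9874381-9874680: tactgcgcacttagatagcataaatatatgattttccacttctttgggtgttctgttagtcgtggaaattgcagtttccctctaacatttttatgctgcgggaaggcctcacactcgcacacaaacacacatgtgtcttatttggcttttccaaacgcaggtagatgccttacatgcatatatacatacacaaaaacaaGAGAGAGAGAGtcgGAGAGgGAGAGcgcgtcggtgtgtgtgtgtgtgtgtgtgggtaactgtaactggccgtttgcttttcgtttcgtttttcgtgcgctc
Before the second start, chr3R:9928617-9928916: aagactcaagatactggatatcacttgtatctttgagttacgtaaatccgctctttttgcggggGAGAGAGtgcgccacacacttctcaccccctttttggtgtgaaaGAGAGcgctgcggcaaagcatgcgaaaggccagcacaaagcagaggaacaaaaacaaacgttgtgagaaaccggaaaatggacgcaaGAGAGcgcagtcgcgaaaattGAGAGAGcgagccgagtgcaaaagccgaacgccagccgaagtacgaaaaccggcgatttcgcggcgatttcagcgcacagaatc

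The sequence before the first start held the summits of peaks 6 and 23, at bases 41 and 240 of those printed. The sequence before the second start held the summit of peak 9 at base 39. Each held 6 overlapping matches to GAGAG, counting both strands. Among 19253 promoters of coding transcripts, each taken as 300 bp before a start, 32.5% held at least 1 match and 2.84% held 6 or more. The sequence before the first start also had 10 overlapping matches to CACACA and 3 to TTAT, with no TAAT. The sequence before the second start had neither TAAT nor TTAT. The count of 6 was singled out after the sequences were read, and a match to these letters is not a bound site.

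The 31 summits lay in 27 distinct intervals, since 3 intervals carried 7 of the summits between them. That was 22.6% of the summits, against 12.0% of all IDR summits in intervals with several summits. Merging overlapping intervals left 24 regions that covered 12814 bp, which is 10.3% of the window. The median interval was 485 bp wide, with a range of 142 to 1355 bp. The density was 249 summits per Mb, against 60.8 per Mb over the 6 main chromosome arms, a ratio of 4.09. Taking from each replicate list its 8143 strongest peaks gave 31, 34 and 29 summits in the window for replicates 1, 2 and 3, a mean of 31.3 ± 2.52 (SD, n = 3). The replicate ratios to the arms were 4.09, 4.48 and 3.82. The full lists, each 30000 peaks long, placed 64, 74 and 61 summits here (66.3 ± 6.81, SD, n = 3). All replicates were dense here, with replicate 2 highest and replicate 3 lowest in both counts.

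**Figure D1:**
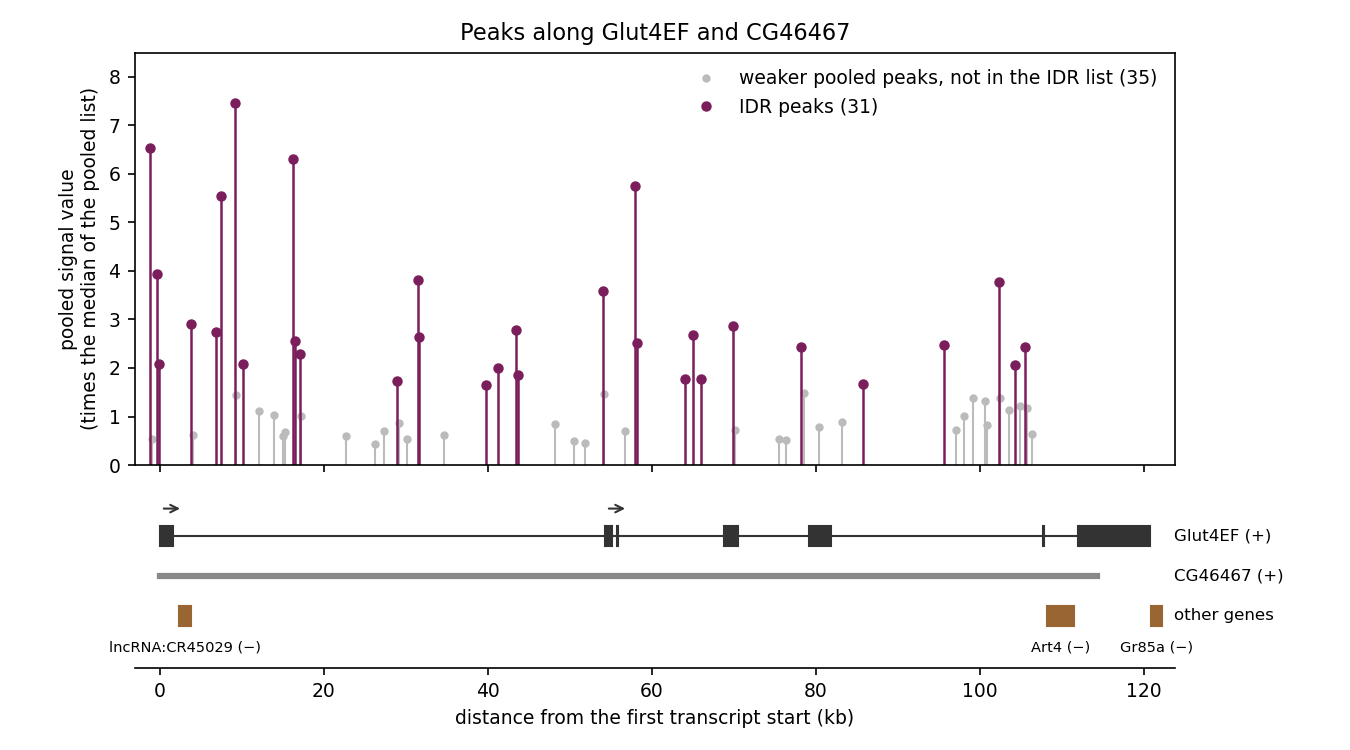
Peaks along Glut4EF and CG46467. The upper panel plots each IDR peak by its summit's distance from the first transcript start in kb and its signal value divided by the median of the pooled list, with grey marks for pooled peaks outside the IDR list. The lower panel draws the merged exons of Glut4EF as boxes, its starts as arrows, the span of CG46467 and the other genes. Of the 5 strongest peaks, 4 stood between 2 kb before and 20 kb after the first start, and peak 4 stood shortly after the second. No IDR or pooled peak lay over the 3′ end.

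By position, 25 summits (80.6%) were intronic, 4 (12.9%) lay within 500 bp of a transcript start, 1 lay in an exon outside coding sequence and 1 was intergenic. Of all IDR summits, 45.9% were intronic, 28.1% lay within 500 bp of a start, 3.25% lay in other exons and 22.5% were intergenic. The window was drawn around gene bodies that are mostly intron, which by itself raises the intronic share and lowers the intergenic one. No summit of the locus lay in coding sequence, which made up 4.77% of the window, and the nearest was 521 bp away from it. Of all IDR summits only 0.209% were placed in coding exons, so this absence is not particular to the locus. The median distance to coding sequence was 5351 bp and the longest 26753 bp.

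Merging the exons of both genes' transcripts cut the locus into 8 exonic and 7 intronic blocks. The 2 kb before the first start held 3 IDR summits, and the strong lists of replicates 1, 2 and 3 placed 2, 4 and 3 there. The first exonic block, with the CG46467 reading frame and the beginning of the longer Glut4EF frame, held none in any list. The first intron, 52693 bp long and ending at the second start, held 16 IDR summits and 16, 16 and 13 strong summits in replicates 1, 2 and 3. It therefore carried 16 of the 31 peaks, at 304 per Mb. The third intronic block, 12935 bp long and lying after the second start, held 5 IDR summits and 4 strong summits in each replicate, at 387 per Mb. The fourth intronic block held 1 in 8599 bp, and the fifth held 5 in 25769 bp, at 194 per Mb. In this block the replicates placed 7, 6 and 6 strong summits, all above the IDR count. Peak 11 was the only one in an exon, in the block that ends transcripts RC and RE, past their reading frames.

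After the fifth intronic block the IDR and pooled lists had no summit at all. The last IDR summit of the locus lay 15222 bp before the end of Glut4EF, at 9980142, and the last pooled summit at 9980990. This empty stretch took in the last exons with 3′ ends of most transcripts, and the genes Art4, an arginine methyltransferase gene on the minus strand, and Gr85a, a gustatory receptor gene. Of the replicate lists, full length, only replicates 1 and 2 placed a summit there, 1 each. The next IDR summit on the arm was 61851 bp beyond the last one of the locus, 828 bp from a start of Mical.

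**Figure D2:**
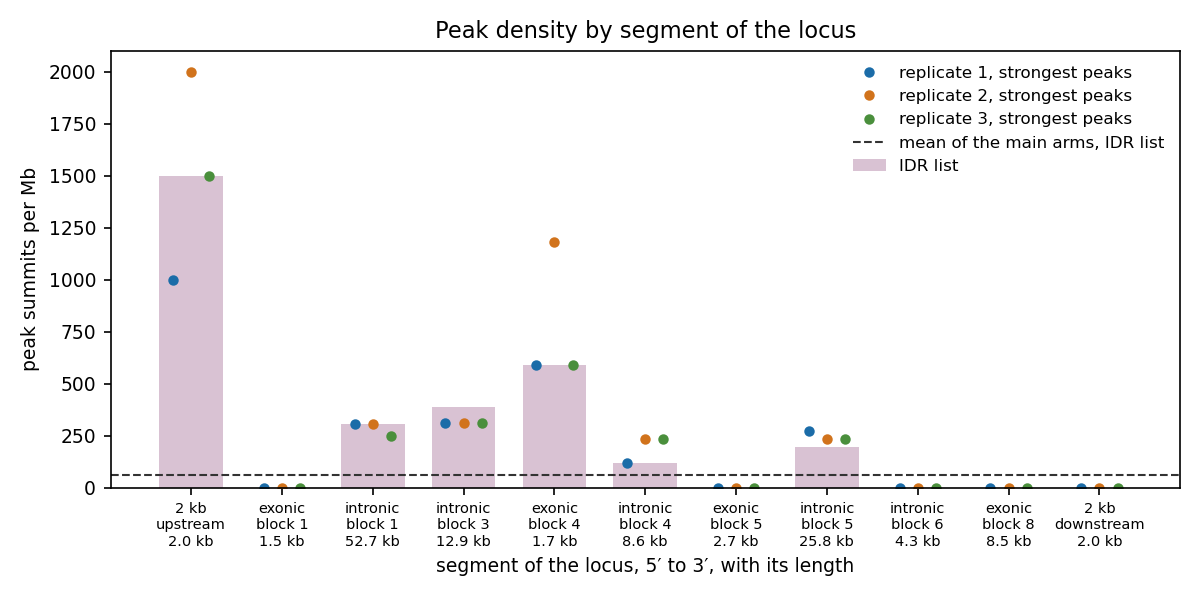
Peak density by block of the locus, in summits per Mb. Bars give IDR summits, points the strong summits of each replicate and the dashed line the arms (60.8 per Mb), with only blocks of at least 1.5 kb drawn. The first intron stood at 304 per Mb and the blocks at the 3′ end at 0, and the tallest bars belong to short blocks with 3 summits and 1.

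Most of the strongest peaks lay in the 5′ part of the locus. Strength is given as the signal value of a peak, a score of the authors' caller, divided by the median of its own list. From 2 kb before the first start to 20 kb after it there were 11 of the 31 summits (35.5%) in 17.6% of the window, among them 4 of the 5 strongest. The median strength of the 11 summits was 2.90 times the median pooled peak, with a range of 2.08 to 7.46. Not all of them had the first start as their nearest. Peaks 1, 3 and 5 lay nearer to the start of lncRNA:CR45029, a gene within the first intron, at 5319, 12498 and 3680 bp from it. The next 14 summits, up to 20 kb past the second start, had a median of 2.57 (1.65 to 5.74). The 6 beyond had a median of 2.43 (1.68 to 3.78). The ranges of the 3 stretches overlap widely, and only the top values separate them.

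Peak 1 lay in the first intron, 9136 bp after the first start, in the interval 9883518 to 9884212. It stood at 7.43, 6.99 and 7.24 times the list median in replicates 1, 2 and 3 (7.22 ± 0.220, SD, n = 3), and at 7.46 in the pooled list. It ranked 229 of 8143 in the IDR list and was the locus's best-ranked peak in replicates 2 and 3. Peak 2 lay 1153 bp before the first start, in intergenic sequence at 9873164 to 9873878. Its values were 7.49, 5.26 and 5.99 (6.25 ± 1.14, SD, n = 3), highest in replicate 1, where it ranked above peak 1. Peak 3 lay 16315 bp into the first intron, with values of 6.89, 5.65 and 4.99 (5.84 ± 0.964, SD, n = 3). Its interval of 1355 bp, the widest of the locus, also held peaks 16 and 21. Peak 5, 7497 bp in, had values of 5.98, 5.33 and 5.73 (5.68 ± 0.331, SD, n = 3). Peak 10, weaker at 2.83, 2.94 and 2.36 (2.71 ± 0.307, SD, n = 3), lay 31 bp from the start of lncRNA:CR45029, a noncoding gene transcribed against Glut4EF from within the first intron. The order of peaks 2, 3 and 5 differed between replicates, and their values overlap. These 5 summits, with 50 bp on either side, are printed on the plus strand of dm6 from RefSeq, because they include the strongest signal of the locus and the lncRNA start, with TAAT and TTAT on either strand in capitals.

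Peak 1, chr3R:9883767-9883867: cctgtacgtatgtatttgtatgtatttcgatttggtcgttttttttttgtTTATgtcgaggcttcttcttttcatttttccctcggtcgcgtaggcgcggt
Peak 2, chr3R:9873478-9873578: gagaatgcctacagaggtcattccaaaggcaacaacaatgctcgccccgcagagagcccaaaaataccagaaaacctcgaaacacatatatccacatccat
Peak 3, chr3R:9890946-9891046: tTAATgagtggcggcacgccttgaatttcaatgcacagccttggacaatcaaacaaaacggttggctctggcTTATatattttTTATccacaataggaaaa
Peak 5, chr3R:9882128-9882228: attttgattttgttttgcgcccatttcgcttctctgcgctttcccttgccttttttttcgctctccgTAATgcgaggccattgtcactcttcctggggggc
Peak 10, chr3R:9878479-9878579: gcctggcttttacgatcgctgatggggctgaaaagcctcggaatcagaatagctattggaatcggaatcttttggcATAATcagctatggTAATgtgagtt

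Peak 2 held neither word, peak 1 held 1 TTAT, and peak 10 held 2 matches to TAAT and 1 to TTAT. The strongest pair at the locus was therefore no richer in these words than the weaker peak 10.

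At the first start itself, peak 6 had its summit 260 bp before the start and values of 3.74, 4.39 and 3.00 (3.71 ± 0.695, SD, n = 3). Peak 23, in the same interval of 640 bp and 61 bp before the start, stood at 2.08 in the pooled list, and in replicate 1 a single peak covered both summits. At the second start, peak 9 lay 262 bp before it, with values of 3.51, 3.17 and 3.53 (3.40 ± 0.204, SD, n = 3). The replicate values of peaks 6 and 9 overlap, so the strengths of these peaks were not told apart with 3 replicates. The replicate 1 value of peak 6 stands for peak 23 as well. A further pooled summit just before the second start, at 1.47 times the pooled median, was outside the IDR list. The summits of peaks 6 and 9 are printed in the same way, as the strongest before each start, and each begins a few bases ahead of the stretch of 300 bp shown above.

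Peak 6, chr3R:9874371-9874471: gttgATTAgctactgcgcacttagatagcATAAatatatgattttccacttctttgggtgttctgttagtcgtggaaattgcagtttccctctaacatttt
Peak 9, chr3R:9928605-9928705: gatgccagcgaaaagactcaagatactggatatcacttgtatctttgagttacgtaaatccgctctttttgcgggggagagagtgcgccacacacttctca

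Peak 6 held 1 TAAT, in the bases ahead of that stretch, and 1 TTAT, while peak 9 held neither word and 2 overlapping matches to GAGAG.

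The strongest peak after the second start was peak 4, in the third intronic block, 3703 bp past that start at 9932374 to 9932910. Its values were 5.24, 5.57 and 5.65 (5.49 ± 0.217, SD, n = 3). Peak 7, in the middle of the first intron 31458 bp after the first start, had values of 3.71, 3.54 and 3.99 (3.75 ± 0.227, SD, n = 3). Peak 8 lay in the fifth intronic block, 102247 bp after the first start, with values of 3.80, 4.33 and 2.47 (3.54 ± 0.958, SD, n = 3). Peaks 4 and 7 varied little between replicates, while peak 8 was low in replicate 3. Their sequences are printed in the same way, as the strongest sites away from the 5′ end.

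Peak 4, chr3R:9932570-9932670: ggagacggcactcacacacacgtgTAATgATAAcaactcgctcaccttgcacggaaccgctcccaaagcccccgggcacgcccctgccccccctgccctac
Peak 7, chr3R:9906089-9906189: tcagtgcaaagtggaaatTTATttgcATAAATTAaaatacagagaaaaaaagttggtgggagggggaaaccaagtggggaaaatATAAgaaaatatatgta
Peak 8, chr3R:9976878-9976978: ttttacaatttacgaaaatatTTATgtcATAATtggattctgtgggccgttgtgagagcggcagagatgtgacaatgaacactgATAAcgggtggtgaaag

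Peak 4 was the richest in G and C of all 31 summits, at 64.4%, with 1 match each to TAAT and TTAT. Peaks 7 and 8 were AT-rich (31.7% and 39.6% G and C) and each held 1 TAAT and 3 matches to TTAT.

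The other 21 peaks stood between 1.65 and 2.87 times the pooled median. Peak 11, in the exonic block, gave 2.71, 2.69 and 2.64 in replicates 1, 2 and 3 (2.68 ± 0.0361, SD, n = 3), the smallest spread of the locus. Peak 12 gave 2.76, 2.84 and 2.34, and peak 14 gave 3.15, 2.18 and 2.59. Peak 17, next to peak 4 in nearly the same interval, gave 1.63, 3.58 and 2.10 and was highest in replicate 2. Peaks 18, 20 and 24, all in the fifth intronic block, were each highest in replicate 1, at 2.98, 3.20 and 3.18. They were lowest in replicate 3, at 1.83, 1.96 and 1.60. Peak 19, alone in the fourth intronic block, gave 2.03, 1.95 and 1.99.

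Of the 31 peaks, 25 (80.6%) were overlapped by at least 1 bp by a strong peak of all 3 replicates, where the share over all IDR peaks was 72.8%. The shares are close, and the IDR list was itself made from these replicates. A further 4 peaks were found in 2 replicates and 2 in 1. The 24 strongest were found in all 3, and 6 of the weakest 7 were not. The exception was peak 26, whose call in replicate 3 came from the neighbouring peak 12, since its own match there ranked 13264. Of these 7, peak 29 gave 2.06, 1.76 and 0.944 in replicates 1, 2 and 3, and peak 31, the weakest, gave 2.07, 1.35 and 1.49. With the full lists every peak had a match in all 3 replicates. Replicate 3 found fewest, 26 of 31, while replicates 1 and 2 found 30 and 29. The nearest replicate summit was within 100 bp of the IDR summit in 87 of 93 pairs, with a median shift of 23.0 bp. Spearman's correlation of strength over the 31 peaks was 0.715 between replicates 1 and 2, 0.760 between 1 and 3 and 0.821 between 2 and 3. These are descriptions only, as the replicate lists share 1 control file and the peaks share a locus.

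**Figure D3:**
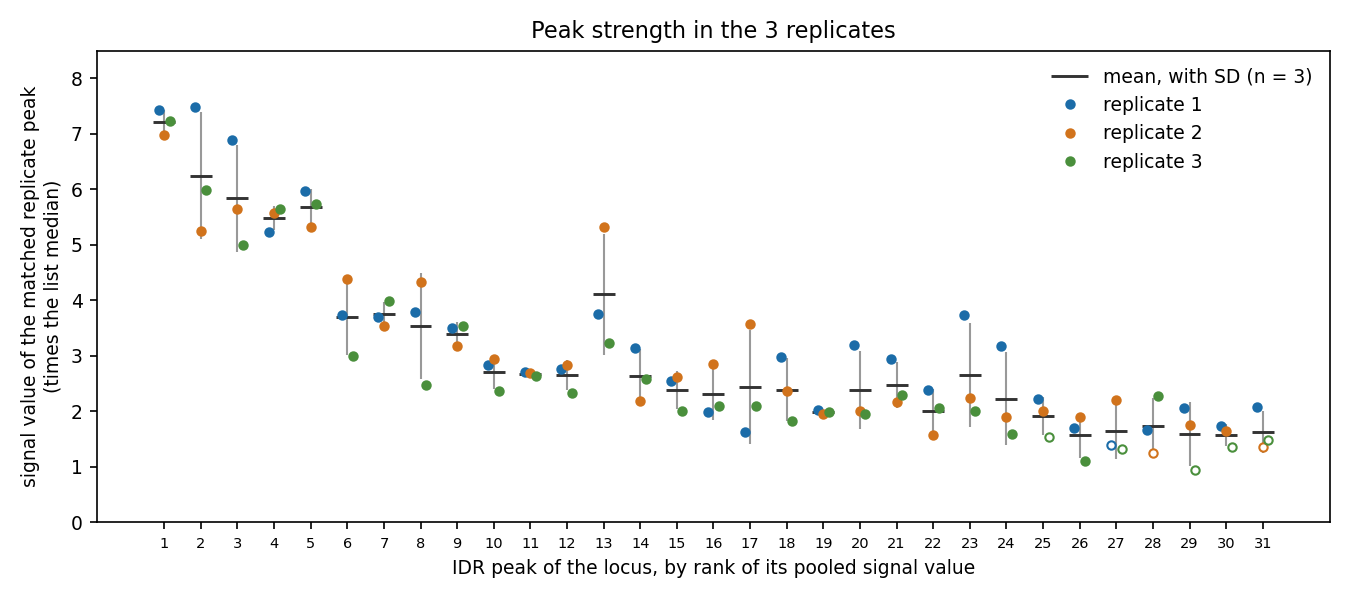
Strength of the 31 peaks in each replicate. Peaks are ordered by pooled strength on the x axis, and the y axis gives signal value divided by the list median. Open circles mark a peak with no overlap from the replicate's 8143 strongest, and all of these fell among the 7 weakest peaks. Bars mark the mean and lines the SD (n = 3). Peak 13 shared a replicate 2 peak with peak 5, and peak 23 shared a replicate 1 peak with peak 6, so each of those 2 values stands for both summits.

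The weakest member stood at 1.65 times the pooled median, just inside the IDR limit of 1.59. The strongest pooled peak of the window outside it stood at 1.48. Of the 66 pooled summits of the window, 35 (53.0%) lay outside the IDR list, against 72.9% of all pooled peaks. Those 35 were 1.72 times as dense as such peaks on the arms, less than the ratio of 4.09 for the IDR peaks. The locus was chosen by its number of peaks, and the IDR peaks are the strongest pooled ones. These contrasts therefore follow in part from the choice. The IDR peaks of the locus had a median of 2.56 times the pooled median, and all IDR peaks 2.37. The median rank was 3513 of 8143, 20 of the 31 (64.5%) lay in the stronger 50% of the list and 5 (16.1%) in the strongest 10%.

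Peaks were spaced unevenly. Splitting at gaps of over 1 kb left 22 clusters, 15 of them single summits. The median gap between neighbouring summits was 2067 bp and the longest 11847 bp. Of the 30 gaps, 5 measured 199 to 210 bp. Over the whole IDR list 7.91% of gaps were in that range and none was shorter than 199 bp, so some neighbouring summits here sat at the smallest spacing the list contains.

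Around each summit, 50 bp on either side were searched for short words. TAAT occurred on either strand in 21 of 31 summits (67.7%, 95% exact interval 48.6% to 83.3%), and in 64.5% of the 62 windows of the same width placed 500 bp to either side. Over all IDR summits it was 57.7%, and over their flanking windows 66.4%. TTAT was in 19 summits (61.3%, interval 42.2% to 78.2%) and in 69.4% of the flanking windows, with 68.7% over all IDR summits. Neither word was told apart from its flanks at this number of peaks. TAATTA, which contains TAAT, was in 1 summit (3.23%), against 8.06% of flanking windows and 5.15% of all IDR summits. TGATNNAT, a word bound by Exd with Hox partners, was in 0 of 31, which allows a share of up to 11.2%, against 4.35% of all IDR summits. GAGAG was in 8 summits (25.8%, interval 11.9% to 44.6%) and in 5 of 62 flanking windows (8.06%), with 19.0% over all IDR summits. The flanking windows of all IDR summits had 11.1%. The summits of the peak-rich genes sbb and pum, described below, had 28.6% and 33.3%. CACACA was in 6 (19.4%, interval 7.45% to 37.5%), against 11.3% of flanks and 16.6% of all IDR summits, whose flanks had 9.55%. A higher share of GAGAG and CACACA at summits than in flanks is therefore not particular to this locus. CAGGTA, the word of the early activator Zelda, was in 0 of 31, again allowing up to 11.2%, with 1.39% over all IDR summits. Flanking windows can fall in a neighbouring peak, and the intervals cover counting error only. The median share of G and C was 45.5% around the summits (range 30.7% to 64.4%), 40.6% in the flanking windows and 43.4% over the window. It was 45.5% over all IDR summits.

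**Figure D4:**
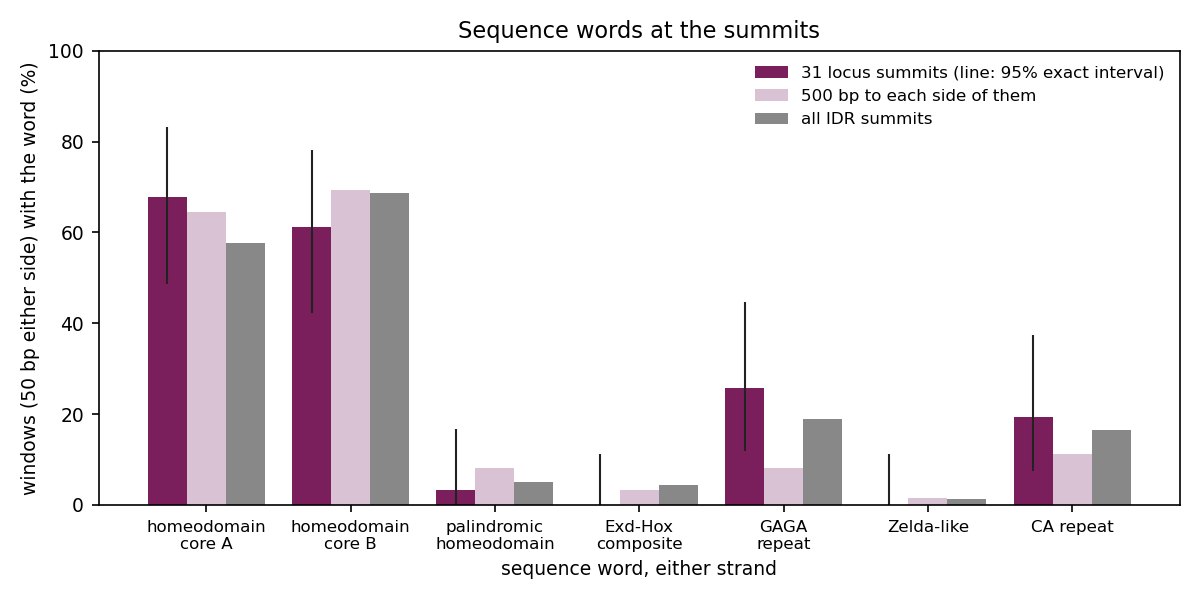
Share of windows of 50 bp on either side with each word, at the 31 summits of the locus (with 95% exact intervals), in their flanking windows and at all IDR summits. Cores A and B stand for TAAT and TTAT, and the palindromic word for TAATTA. The intervals of the locus are wide, and for each of the 7 words the interval includes the share over all IDR summits.

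Among 13945 protein-coding genes, Glut4EF and CG46467 shared the fourth place by number of IDR summits within the gene or 2 kb of it. The genes above were sbb with 35, pum with 33 and MSAmiP, a micropeptide gene of the bithorax region, with 32. Below them came Eip75B, jing and kirre with 26 each, and Tlk, hth, shn and tara with 24, of which hth encodes the Hox partner Hth. The strong lists gave sbb 36.0 ± 1.00, MSAmiP 32.7 ± 1.53, Glut4EF 31.3 ± 2.52 and pum 31.0 ± 1.73 (SD, n = 3). The last 3 do not differ beyond their spread, and jing, at 29.3 ± 5.13, overlaps them too. By length Glut4EF ranked 56. Among 307 coding genes of at least 50 kb its density of 249 per Mb ranked 12, where the median was 64.1 per Mb and 37 genes had no IDR peak. CG46467, with the same 31 summits in a shorter window, ranked 10 at 262 per Mb, so the genes ranked above Glut4EF include its own locus. Of all coding genes 26.5% had an IDR summit by the same count.

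MSAmiP, with 32 peaks at 463 per Mb, was nearer to Glut4EF in number than sbb or pum and is not described further. sbb, which encodes a transcriptional corepressor, and pum, which encodes an RNA-binding translational repressor, were compared with Glut4EF in more detail. Their peaks were likewise mostly intronic, 31 of 35 in sbb and 28 of 33 in pum, against 25 of 31. Each window was drawn around a gene body, which favours intronic positions. A promoter position was taken by 1 peak in sbb, and by 4 each in pum and Glut4EF. Density was 421 per Mb in sbb, 249 in Glut4EF and 188 in pum. The strongest peak stood at 10.8 times the pooled median in sbb, 7.46 in Glut4EF and 6.71 in pum, and the medians were 3.33, 2.56 and 2.33. Glut4EF lay between sbb and pum in density, strongest peak and median strength. The share of peaks found in all 3 replicates was 82.9% in sbb, 84.8% in pum and 80.6% in Glut4EF.

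**Figure D5:**
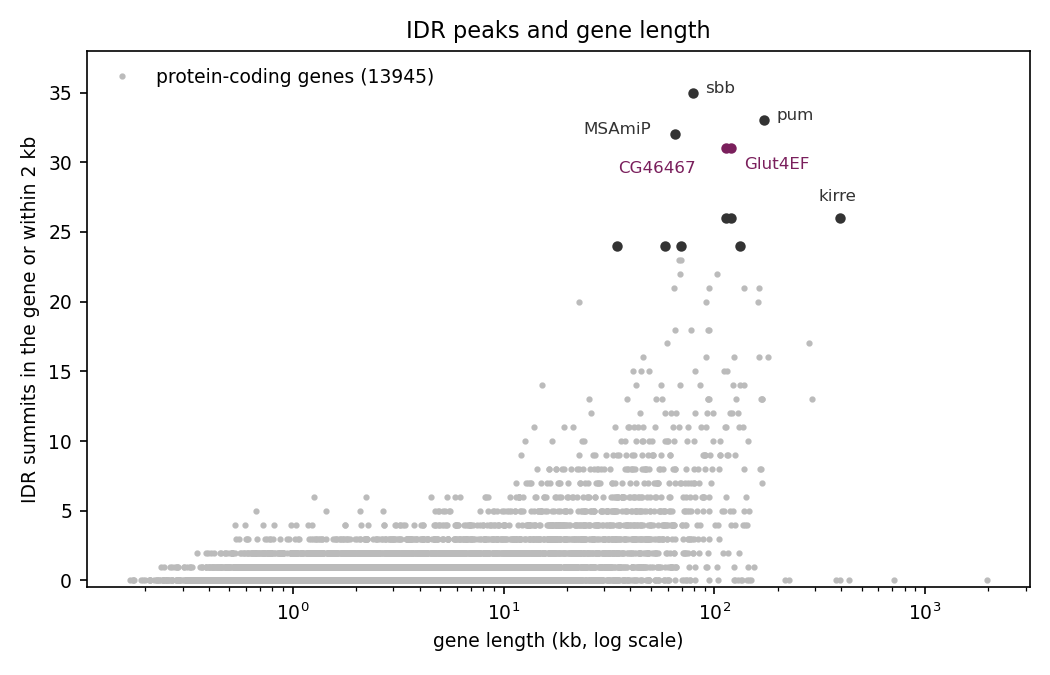
IDR summits per protein-coding gene against gene length. Each point is a gene, the x axis is gene length in kb on a log scale and the y axis counts IDR summits in the gene or within 2 kb. Glut4EF and CG46467, with 31 each, lie among the longer genes but well above most genes of their length.

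The name of Glut4EF refers to glucose transport under insulin, and a list of 24 sugar transporter and insulin pathway genes was counted by the same rule. Of these, 10 (41.7%) had at least 1 IDR summit, against 26.5% of all coding genes, in a list whose genes differ widely in length. Of 9 sugar transporter genes 3 had peaks. nebu had 5, and Glut1 and Glut3 had 3 each, while sut1, sut2, sut3, sut4, Tret1-1 and Tret1-2 had none. Glut3 measures 1711 bp and lies within the region of the bithorax genes, where abd-A itself is. Of 15 genes of the insulin pathway and Mef2, 7 had peaks. The insulin receptor gene InR had most with 15, and 13, 17 and 13 strong summits in replicates 1, 2 and 3. Mef2, which encodes the muscle factor whose mammalian relatives bind the GLUT4 promoter, had 10, and its replicates gave 9, 7 and 6. Pdk1, a kinase gene, had 8, and foxo, the gene of the factor that insulin signalling keeps out of the nucleus, had 5. Pi3K21B and Thor had 2 each and S6k had 1. No IDR summit was counted at chico, Akt or mTor, nor at the remaining pathway genes. Density was counted over the gene with 2 kb on each side. InR with 283 summits per Mb, Thor with 386, Pdk1 with 391 and Glut3 with 525 were denser than Glut4EF with 249. Thor (1179 bp) and Glut3 are short, so their values rest on 2 and 3 summits in windows that are mostly flank.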

How the data were processed

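Peak lists in narrowPeak format on dm6 were deposited for 3 replicates, for the pooled replicates and for the IDR threshold, 5 lists in all. The replicate lists share 1 control file, per the deposited text records. The caller, aligner and IDR threshold are not given here, and read depth and the precision it gives are unknown. The signal value deposited by the authors was treated as a score and divided by the list median. The deposited −log10 q-value stood at its ceiling in 93.8% of IDR peaks and was not used for ranking. The deposited summit offset, added to the start, gave each summit.

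The IDR list was the 8143 strongest pooled peaks, and each replicate was limited to as many. A peak counted as found with 1 bp of overlap. Summits within 500 bp of a transcript start counted as promoter. Genes came from Ensembl release 115 (FlyBase 6.54), whose coordinates are those of dm6. Words were matched on either strand within 50 bp of a summit, and intervals are 95% Clopper-Pearson intervals.

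The locus, the gene lists and the words were chosen with earlier results of these data known, so no test or p-value was computed. Genes named were those in the window, the 10 coding genes with most IDR peaks (with ties) and genes of the pathway lists, not all of which are reported by name here, with Tor matched to mTor. Peaks are numbered by pooled strength. Sequences shown are those of the 10 strongest peaks and of the 300 bp before each start. Counting and matching were tested on simulated data. Python 3.11.15, numpy 2.4.6, pandas 2.3.3, scipy 1.17.1 and matplotlib 3.10.9 were used. Alternatives were other flanks, overlaps, list lengths, word windows and leaving out each replicate, without remaking the IDR list.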

Additional observations from a re-analysis of the deposited data

How the results depend on the processing

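Of 75 values recomputed under alternatives, 62 stayed within the limits set for each and 13 moved. The window held 20 summits in the stronger 50% of the IDR list. Requiring 50% of both peaks to overlap left 11 peaks found in all 3 replicates instead of 25. The share over all IDR peaks under that rule is not given here, so the drop cannot be read as particular to this locus. The density ratio of 4.09 became 5.28 in the stronger 50% of the list and 3.44 over bases more than 300 bp from coding sequence. For each replicate left out in turn, only IDR peaks found in the strong lists of both other replicates were kept. This gave 4.22 to 4.69, with 4.69 without replicate 3. The IDR list was not remade, so these values describe replicate support and not peak calling without a replicate. Replicates had on average 66.3 summits with all deposited peaks and 17.0 with 4071 peaks each.

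Words moved with the width searched. Within 25 bp of the summit TAAT was in 45.2% of summits, TAATTA in 0% and CACACA in 6.45%. All IDR summits had 36.8%, 2.84% and 8.41%. Within 100 bp TTAT was in 90.3% and CACACA in 41.9%. TAATTA was in 0% of the stronger 50%. GAGAG, within its exact interval throughout, went from 12.9% within 25 bp to 41.9% within 100 bp, where all IDR summits had 9.65% and 35.0%. The rank of Glut4EF stayed between 3 and 5. The cause of these shifts was not tested, other than that wider windows and longer lists hold more by construction. No paired analysis was possible because the labels give 1 group. With 31 peaks and no read depth, differences in word shares within the exact intervals were not detectable.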

Other observations

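Just outside the window, on the side before the first start, the IDR list had 3 further summits within 10 kb. The nearest lay 2194 bp and the next 2407 bp before the start. The one at 2407 bp stood at 4.11 times the pooled median and ranked 1245 of 8143, between peaks 5 and 6 of the locus. The farthest was 1085 bp from a start of Teh1.

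Of the replicates' 8143 strongest peaks, 4 in the window overlapped no IDR peak. Replicate 1 had 2, at 1.77 and 1.71 times its median, both in the fifth intronic block. Replicate 3 had 2, at 1.97 in the fourth intronic block and 1.64 in the fifth.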
